A study of Mus musculus with 6 samples.

Results

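The Hox genes were followed in RNA of mouse sciatic nerve, from control littermates (Ctrl) and from OGT_SCKO mice. They were chosen with earlier results of these data known. The rule itself took probes by name and left out control spots. The gene name had to be Hox, a cluster letter from a to d, and a paralog number. This gave 45 probes for 39 genes among 39429 probes on the array, with 11 genes in the Hoxa cluster, 10 in Hoxb, 9 in Hoxc and 9 in Hoxd. Each group had 3 pools with 1 array each, of mice aged 1 month on a background the labels spell C56 BL6. The series title speaks of O-GlcNAcylation in Schwann cells, the glia of peripheral nerve. Ogt encodes the enzyme that attaches the sugar O-GlcNAc to nuclear and cytoplasmic proteins. The labels call the second group OGT-SCKO and, in the extraction protocol, OGT-KO. The Cre driver, the deleted part of Ogt and the number of animals in a pool are not given in the sources used here, so the p-values measure the spread between these pools.

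Hox genes encode transcription factors with a homeodomain, the fold that binds DNA. They lie in clusters in which the order of the genes matches the order in which they are used along the head-to-tail axis, with low paralog numbers toward the head and high numbers toward the tail. Adult cells outside the brain often keep part of the Hox pattern of the level at which they arose, and fibroblasts are the textbook case. The sciatic nerve holds Schwann cells, which stem from the neural crest, beside fibroblasts, perineurial cells, vessels and macrophages.

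Ogt itself was checked first. Its level, given throughout as log2 of the signal relative to the 75th percentile of the array, was 0.46, 0.35 and 0.108 in Ctrl 1, 2 and 3, and -0.891, -1.015 and -1.008 in OGT_SCKO 1, 2 and 3. The groups did not overlap, and the fall was -1.28 (SE 0.13, limma adjusted p 0.00117), which left 41.2% of the Ctrl level. A second Ogt probe was also lower in every OGT_SCKO pool. An array had 58.9% to 65.2% of its probes well above background and none saturated. The arrays lay on 2 slides, with Ctrl 2 and all 3 OGT_SCKO pools on slide 1 and Ctrl 1 and Ctrl 3 on slide 2, so a value with slide as a block rests on Ctrl 2 as the only control of the shared slide. On slide 1 alone the differences equal the blocked ones, and no Hox gene passed the limma test after adjustment (4 higher and 1 lower at an unadjusted p under 0.05).

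A Hox gene counts as detected on an array where any of its probes carried the scanner software's flag for a signal well above background. By that flag 20 of the 39 genes were detected on all 6 arrays, 7 on some and 12 on none. An array detected between 21 Hox genes, in Ctrl 2, and 26, in OGT_SCKO 2. These are also the arrays with the lowest and the highest share of all probes well above background, 58.9% and 65.2%. The pattern followed the paralog number. Of the 30 genes with paralog numbers 1 to 10, 26 were detected on at least 1 array, and of the 9 genes with numbers 11 to 13 only Hoxc12 was. Under the software's more lenient flag, for a signal significantly above background, 27 genes were positive on all 6 arrays.

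**Figure D1:**
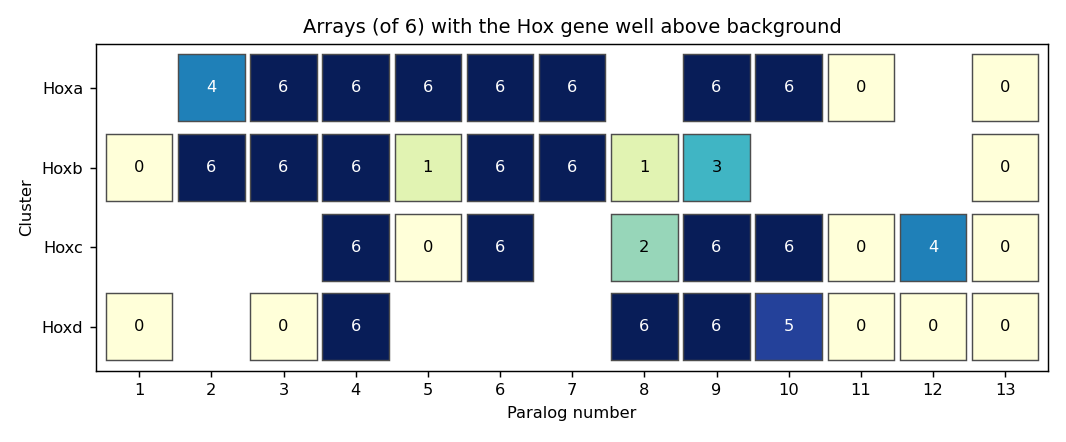
Number of arrays, of 6, on which each Hox gene was well above background, with the 4 clusters as rows and the paralog number as columns (a blank cell is a gene that is not on the array or not shown). Every column from paralog 2 to 10 holds at least 1 gene on all 6 arrays, and of the genes at 11 to 13 only Hoxc12 is above 0.

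In the Hoxa cluster, 8 of 11 genes were detected on all arrays, among them Hoxa3 to Hoxa7, Hoxa9 and Hoxa10. Hoxa2, which specifies the second branchial arch, was detected on 4 arrays, and Hoxa11 and Hoxa13, which pattern the distal limb, on none. In the Hoxb cluster Hoxb2, Hoxb3, Hoxb4, Hoxb6 and Hoxb7 were detected on all arrays, Hoxb9 on 3, Hoxb5 and Hoxb8 on 1 each, and Hoxb1 and Hoxb13, the ends of the cluster, on none. Hoxb3 was on all arrays through 1 probe whose listed accessions also name Hoxd3, and its other probe was on 4. In the Hoxc cluster Hoxc4, Hoxc6, Hoxc9 and Hoxc10 were detected on all arrays. Hoxc12 was detected on 4 arrays and Hoxc8 on 2, while Hoxc5, Hoxc11 and Hoxc13 were detected on none. In the Hoxd cluster Hoxd4, Hoxd8 and Hoxd9 were detected on all arrays and Hoxd10 on 5, and Hoxd1, Hoxd3, Hoxd11, Hoxd12 and Hoxd13 on none. Every paralog number from 2 to 10 was thus held by at least 1 gene detected on all arrays, and number 4 by all of its 4 genes.

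The probes are 60 bases long, and their positions below are those in the files, on mouse build mm9. Hox genes share much of their homeobox, so each probe was searched on its own strand for a pattern of 15 bases, called the homeobox word here, that spells the conserved residues at the end of the recognition helix. It was in 3 of the 45 probes. Those of the neighbours Hoxc11, at chr15:102787022-102787081, and Hoxc12, at chr15:102768889-102768948, both on the plus strand, are shown because they lie on this conserved stretch and only the latter was detected, with the word in capitals.
Hoxc11: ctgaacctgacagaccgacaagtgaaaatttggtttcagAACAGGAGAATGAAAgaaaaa
Hoxc12: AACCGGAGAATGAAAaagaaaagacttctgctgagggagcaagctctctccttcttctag
The Hoxb3 probe that stands for the gene is the only 1 of the 45 whose listed accessions name a second gene, Hoxd3. Its signal cannot be assigned to Hoxb3 alone. The only probe of the paralog 11 to 13 genes that was well above background, that of Hoxc12, is thus 1 of the 3 with the word. Across all 45 probes the longest run of bases shared by probes of different Hox genes was 11. This sets probes against probes and not against the transcripts of other Hox genes, so it cannot show that a probe is specific. The Hoxb3 probe whose accessions also name Hoxd3 had a longest run of only 8.

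The design sets the OGT_SCKO pools against the Ctrl pools. A gene was tested where 1 group or both had it well above background on every array, which held for 21 of the 39 Hox genes and for 19058 genes in all. At a limma p below 0.05 after Benjamini-Hochberg adjustment over all 19058 genes, Hoxd8, Hoxd9, Hoxd4 and Hoxc9 were higher in OGT_SCKO, and Hoxa4 and Hoxa6 were lower. That is 6 of 21 genes, or 28.6%, beside 23.3% of all genes tested. The 4 higher genes are 19.0% beside 11.2% of all genes, and the 2 lower genes are 9.52% beside 12.1%. These shares lie near the background, so the count is no result about Hox genes as a family. The median change of the tested Hox genes was -0.08, beside -0.07 for all genes. In RNA of whole nerve, fewer cells of a type and less RNA per cell cannot be told apart.

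**Figure D2:**
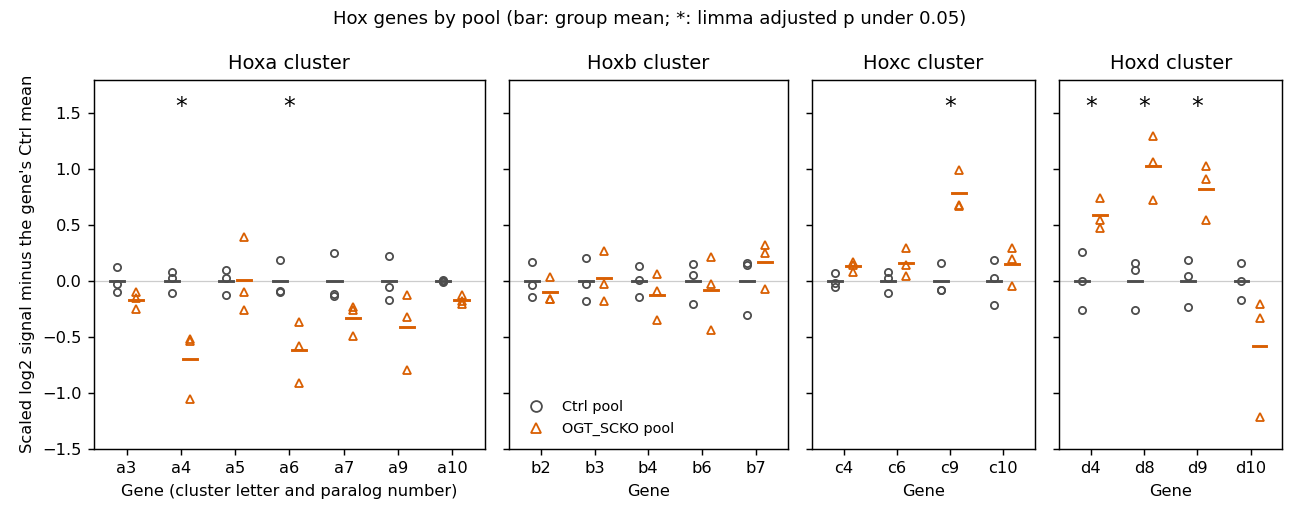
Each pool's scaled log2 signal minus the Ctrl mean of the gene, for 20 of the 21 tested Hox genes by cluster and paralog number (circles Ctrl, triangles OGT_SCKO, 3 pools each, bars the group means, stars a limma adjusted p under 0.05). Triangles lie above all circles in Hoxd4, Hoxd8, Hoxd9 and Hoxc9 and below them in Hoxa4 and Hoxa6, while the Hoxb genes overlap throughout.

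Hoxd8, which patterns the trunk and lower spinal levels, had the largest change of any tested Hox gene. Its probe is at chr2:74545171-74545230 on the plus strand. The level was -1.405, -1.764 and -1.349 in Ctrl 1, 2 and 3, and -0.782, -0.209 and -0.443 in OGT_SCKO 1, 2 and 3. Every OGT_SCKO pool lay above every Ctrl pool. The difference was 1.03 (SE 0.19), a 2.04-fold rise with a limma adjusted p of 0.0112. An exact two-sided permutation test over the pools gave p = 0.1, the smallest value that 3 against 3 can give, here and for each of the other 5 called genes. With slide as a block the difference was 1.29 (limma adjusted p 0.0403), and on slide 1 alone its limma adjusted p was 0.112. Without OGT_SCKO 3 the limma adjusted p was 0.052.

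Hoxd9, which with its paralogs patterns the lumbar spine and the hindlimb, lies next to Hoxd8, their probes being 7.5 kb apart. Its probe is at chr2:74537676-74537735 on the plus strand. The level was -4.488, -4.209 and -4.061 in Ctrl 1, 2 and 3, and -3.707, -3.342 and -3.228 in OGT_SCKO 1, 2 and 3. Again all OGT_SCKO pools were above all Ctrl pools. The difference was 0.83 (SE 0.17), a 1.77-fold rise with a limma adjusted p of 0.0183. The call was lost in 6 of 18 alternative processings, among them slide as a block (0.78, limma adjusted p 0.141) and normexp, another background correction (0.58, limma adjusted p 0.0911). The others include leaving out Ctrl 1, Ctrl 2 or OGT_SCKO 3, at limma adjusted p-values of 0.0627, 0.0526 and 0.0751.

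Hoxd4, a gene of the hindbrain and neck levels, is the next Hox gene beyond Hoxd8, at a distance of 21.7 kb between probes. Its probe is at chr2:74566866-74566925 on the plus strand. The level was -3.069, -3.325 and -3.583 in Ctrl 1, 2 and 3, and -2.586, -2.777 and -2.847 in OGT_SCKO 1, 2 and 3. The groups did not overlap, though Ctrl 1 came close to OGT_SCKO 3. The difference was 0.59 (SE 0.16), a 1.5-fold rise with a limma adjusted p of 0.0402. This call was less stable than those of Hoxd8 and Hoxd9, since 11 of the 18 ended it. They include slide as a block (0.59, limma adjusted p 0.197) and leaving out any pool but Ctrl 1, at limma adjusted p-values of 0.107 without Ctrl 2, 0.122 without Ctrl 3, and 0.0701, 0.0577 and 0.0951 without OGT_SCKO 1, 2 and 3.

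Along chromosome 2 the called genes Hoxd9, Hoxd8 and Hoxd4 are therefore neighbours. On one side lies Hoxd10, its probe 5.4 kb from that of Hoxd9, and on the other Hoxd3, 18.9 kb from Hoxd4. Hoxd10, a gene of the lumbar motor pools and the hindlimb, was at -4.581, -4.41 and -4.252 in Ctrl 1, 2 and 3, and at -4.746, -5.632 and -4.62 in OGT_SCKO 1, 2 and 3. Its difference was -0.58 (SE 0.27, limma adjusted p 0.163), with no overlap between groups but a wide spread in OGT_SCKO. The probe was well above background on 5 arrays, those of the 3 Ctrl pools and of 2 OGT_SCKO pools. Hoxd10 was thus tested through the Ctrl pools alone. Hoxd3 was detected on none. The difference between Hoxd10 and its neighbours was not tested.

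Hoxc9, which limits limb-level motor neurons and marks the thoracic level, was the other gene that rose. Its probe is at chr15:102814735-102814794 on the plus strand. The level was -2.803, -3.038 and -3.043 in Ctrl 1, 2 and 3, and -2.28, -1.968 and -2.287 in OGT_SCKO 1, 2 and 3. The pools of a group lay close together and the groups were well apart. The difference was 0.78 (SE 0.14), a 1.72-fold rise with a limma adjusted p of 0.0096, and leaving out any pool kept the call, with limma adjusted p-values from 0.0131 to 0.0483. With slide as a block the difference was 0.86 and the limma adjusted p 0.0719.

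The other Hoxc genes moved little. Hoxc4, Hoxc6 and Hoxc10 had differences of 0.13, 0.16 and 0.15, none of them past the test (limma adjusted p 0.346, 0.334 and 0.489). Hoxc6, a gene of the forelimb and upper thoracic levels, ran from 0.631 to 0.823 over the Ctrl pools and from 0.786 to 1.031 over the OGT_SCKO pools, which overlap. Hoxc10, next to Hoxc9 with 12.9 kb between probes, overlapped as well. On the other side of Hoxc9, Hoxc8 was dim and not tested, and its levels overlapped between groups, from -5.702 to -5.081 in Ctrl and from -5.314 to -5.15 in OGT_SCKO.

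Hoxa4, a gene of the neck level, fell. Its probe is at chr6:52140287-52140346 on the minus strand. The level was -3.114, -3.297 and -3.168 in Ctrl 1, 2 and 3, and -3.713, -4.245 and -3.725 in OGT_SCKO 1, 2 and 3. All OGT_SCKO pools lay below the Ctrl pools, OGT_SCKO 2 farthest. The difference was -0.70 (SE 0.17), a 1.63-fold fall with a limma adjusted p of 0.029. The call was lost in 9 of 18 alternatives, among them slide as a block (-0.60, limma adjusted p 0.202), normexp (-0.38, limma adjusted p 0.394), and leaving out Ctrl 1, 2 or 3 or OGT_SCKO 3, at limma adjusted p-values of 0.0953, 0.0635, 0.097 and 0.0625.

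Hoxa6, which patterns the lower neck and upper trunk, was the other gene called lower. Its probe is at chr6:52158194-52158253 on the minus strand. The level was -3.895, -3.617 and -3.909 in Ctrl 1, 2 and 3, and -4.717, -4.392 and -4.175 in OGT_SCKO 1, 2 and 3. The groups did not overlap. The difference was -0.62 (SE 0.17), a 1.54-fold fall with a limma adjusted p of 0.0416. This was the weakest of the 6 calls: 15 of 18 alternatives ended it, among them leaving out any of the 6 pools, at limma adjusted p-values from 0.0537 to 0.127. Under normexp the difference was -0.19 and the limma adjusted p 0.659. Hox probes with a surrogate value on all 6 arrays also came out lower in OGT_SCKO under the main scaling, by the 75th percentile. Hoxb1 had a mean of -7.16 in Ctrl and -7.50 in OGT_SCKO, and Hoxc13 of -7.17 and -7.49. Before scaling, the Hoxb1 signal was 25.42 to 25.83 in Ctrl and 25.79 to 26.07 in OGT_SCKO. The 75th percentile was 2749 to 4312 in Ctrl and 3458 to 6136 in OGT_SCKO. These means are thus no fall in RNA of undetected genes. With no filter on dim probes the median change of all genes was -0.24. How far this shift of dim probes enters the differences of Hoxa4, Hoxa6 and Hoxd10 was not tested.

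Hoxa5, a regulator of lung and neck development, lies between these 2 lower genes, with probes 11.8 kb from Hoxa4 and 6.1 kb from Hoxa6. Its level was -4.323, -4.255 and -4.47 in Ctrl 1, 2 and 3, and -4.445, -3.954 and -4.609 in OGT_SCKO 1, 2 and 3. The groups overlapped, and the difference of 0.01 (SE 0.18, limma adjusted p 0.964) turned below 0 in 4 of the alternatives. Hoxa5 was the only 1 of the 8 tested Hoxa genes with a difference above 0.

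Other Hoxa genes had differences below 0 that did not pass the test. Hoxa7, a gene of the upper trunk, differed by -0.33 (SE 0.15, limma adjusted p 0.154). Hoxa3, which forms the thymus and parathyroid, differed by -0.17 (SE 0.11, limma adjusted p 0.293), and Hoxa10, a gene of the lumbar level and the uterus, by -0.17 (SE 0.09, limma adjusted p 0.221). In these genes the groups did not overlap.

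Hoxa9, the leukaemia-linked gene of the posterior trunk, has 2 probes that were kept. The one that stands for the gene differed by -0.41 (SE 0.20, limma adjusted p 0.175) with overlapping groups. The other differed by -0.11 (SE 0.11) with a limma adjusted p of 0.456 among probes. The second probe of Hoxa3 was detected on no array. The second probe of Hoxb3 was detected on 4 arrays, and both probes of Hoxa13 and of Hoxd11 on none.

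The Hoxb cluster showed the least. Hoxb2, Hoxb3, Hoxb4, Hoxb6 and Hoxb7, which mark hindbrain to thoracic levels, differed by -0.10, 0.02, -0.13, -0.08 and 0.17, at limma adjusted p-values of 0.607, 0.928, 0.548, 0.774 and 0.502. In each of these 5 genes the Ctrl and OGT_SCKO pools overlapped. Under the alternatives Hoxb3, Hoxb4 and Hoxb6 changed the sign of their difference at least once, so no direction is given for them.

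By cluster the medians of the tested genes were -0.37 in Hoxa, -0.08 in Hoxb, 0.16 in Hoxc and 0.71 in Hoxd. In Hoxa 7 of 8 genes had a difference below 0, in Hoxc 4 of 4 and in Hoxd 3 of 4 a difference above 0. Over the 18 alternatives the Hoxa median ran from -0.44 to -0.14, the Hoxc median from 0.12 to 0.21 and the Hoxd median from 0.53 to 0.83, with no change of sign. With 6 Hoxa genes lower and 3 Hoxd genes higher without overlap, leaving out a pool could not turn the Hoxa or Hoxd median. Replicate number as a block and a trended and robust variance could not change any of these medians. Slide 1 alone repeats the medians of the slide block. The stable signs over the 18 therefore say little. The Hoxb median ran from -0.11 to 0.09 and was above 0 in 3 of the 18. Whether the clusters differ from one another was not tested. In all, the groups did not overlap in 12 of the 21 tested Hox genes, 57.1% beside 45.7% of all genes. Of the 21, 5 were higher without overlap and 7 lower without overlap. The 7 include Hoxd10, which was tested through the Ctrl pools alone. Of all genes tested, 20.4% were higher and 25.4% lower in that way.

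Genes of the same paralog number were set side by side, and their differences from one another were not tested. At number 4, Hoxd4 rose and Hoxa4 fell, while Hoxb4 and Hoxc4 did not pass the test. At number 9, Hoxc9 and Hoxd9 rose, Hoxa9 had a difference of -0.41 that did not pass, and Hoxb9 was not tested. At number 10, Hoxa10, Hoxc10 and Hoxd10 were tested and none passed. A non-coding RNA of the Hoxa cluster, Hoxa11os, was detected on all 6 arrays although Hoxa11 was on none, and its difference of -0.18 did not pass (limma adjusted p 0.382). Hoxd3os1, of the Hoxd cluster, was on none.

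**Figure D3:**
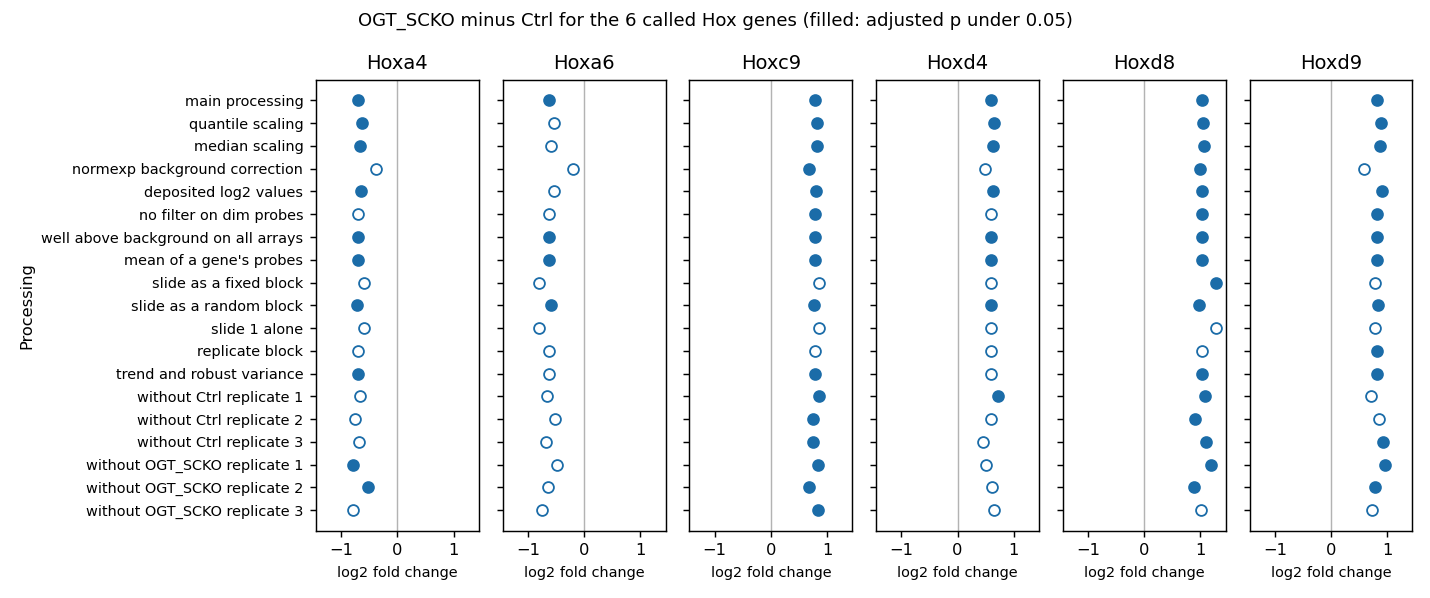
The log2 difference, OGT_SCKO minus Ctrl, of the 6 called Hox genes under the main processing and 18 alternatives (filled circles, limma adjusted p under 0.05; open circles, not). All points of a gene stay on 1 side of 0, which most alternatives could not change, since the groups do not overlap or the difference is the same. Hoxc9 and Hoxd8 keep the call in 15 of 18 alternatives, Hoxa6 in 3.

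Promoter sequence was at hand for 4 of the 6 called genes, in RefSeq windows on build GRCm38.p6. These windows are the 250 bases before the annotated start, on the gene's own strand. Hoxd9 (chr2:74697513-74697762, plus), Hoxd8 (chr2:74704365-74704614, plus) and Hoxd4 (chr2:74721728-74721977, plus) are shown because the neighbouring genes rose together. Hoxa6 (chr6:52208673-52208922, minus) is shown for contrast. Capitals mark matches, on either strand, to TATAAA, the TATA box, or CCAAT, the CCAAT box.
Hoxd9: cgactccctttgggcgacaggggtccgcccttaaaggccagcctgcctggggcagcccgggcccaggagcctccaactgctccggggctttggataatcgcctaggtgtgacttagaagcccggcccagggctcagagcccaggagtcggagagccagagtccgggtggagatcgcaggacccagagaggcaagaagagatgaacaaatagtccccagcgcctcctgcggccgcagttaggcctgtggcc
Hoxd8: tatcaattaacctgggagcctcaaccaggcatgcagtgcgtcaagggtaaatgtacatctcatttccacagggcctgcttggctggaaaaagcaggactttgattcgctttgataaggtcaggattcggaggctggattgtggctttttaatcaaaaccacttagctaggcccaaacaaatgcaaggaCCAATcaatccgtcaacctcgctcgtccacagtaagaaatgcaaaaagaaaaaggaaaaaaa
Hoxd4: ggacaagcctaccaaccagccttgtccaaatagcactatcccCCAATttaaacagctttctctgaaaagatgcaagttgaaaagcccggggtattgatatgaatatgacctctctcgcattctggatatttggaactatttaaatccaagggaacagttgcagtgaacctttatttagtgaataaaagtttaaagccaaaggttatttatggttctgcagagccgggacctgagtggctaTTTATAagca
Hoxa6: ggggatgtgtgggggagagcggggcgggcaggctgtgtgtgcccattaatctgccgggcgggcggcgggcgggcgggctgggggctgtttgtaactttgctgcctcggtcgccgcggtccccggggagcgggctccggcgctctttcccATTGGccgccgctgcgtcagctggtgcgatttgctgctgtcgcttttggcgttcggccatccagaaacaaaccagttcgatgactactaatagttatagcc

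The windows of the 3 Hoxd genes differ in base composition. Hoxd9 has 13 CpG pairs and 65.2% G or C, Hoxd8 has 6 and 44.4%, and Hoxd4 has 3 and 40.4%. The Hoxa6 window has 24 CpG pairs at 65.2%. Over all 32851 windows in the table the medians are 6 CpG pairs and 52.4%, and over the 24 windows of 22 Hox genes they are 12.5 and 58.6%. Both the higher and the lower genes thus include a GC-rich window.

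CCAAT was in the windows of Hoxd8, Hoxd4 and Hoxa6, which each hold 1 match, and in 14 of the 24 Hox windows, beside 33.8% of all windows. TATAAA was in that of Hoxd4, 10 bases before the start, and in 4 of 24, beside 12.4%. None of the 4 windows held TGATTNAT, a site bound by Hox and Pbx proteins together, which was in 2 of 24 Hox windows and 2.82% of all. None held TGANTCA, the AP-1 site, which was in 1 of 24 and 6.75%. A match is a description of these letters only.

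Hox proteins bind DNA together with cofactors of the TALE homeodomain class, the Pbx, Meis and Pknox proteins. All 9 cofactor genes of the list were detected on every array, and 4 passed the test, 3 of them higher and 1 lower, with a median difference of 0.10. That is 44.4% of the list beside 23.3% of all genes, with 33.3% higher beside 11.2% and 11.1% lower beside 12.1%. With 9 genes nothing particular to the list is read from these shares. Pbx4 was at -2.099, -2.007 and -2.222 in Ctrl 1, 2 and 3, and at -0.592, -1.029 and -0.508 in OGT_SCKO 1, 2 and 3. The groups were far apart, and the rise was 2.64-fold (log2 1.40, SE 0.16, limma adjusted p 0.00217). Pknox1, also called Prep1, was at -1.39, -1.765 and -1.672 in Ctrl and at -0.839, -0.314 and -0.621 in OGT_SCKO, a rise of 2.03-fold (log2 1.02, SE 0.17, limma adjusted p 0.00876).

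Meis2, which works with Hox proteins in the limb and the neural crest, was at -2.885, -3.141 and -2.896 in Ctrl and at -2.193, -1.876 and -2.239 in OGT_SCKO. It rose 1.83-fold (log2 0.87, SE 0.14, limma adjusted p 0.00775). Pbx3 went the other way in every pool, from -0.066, -0.18 and -0.075 in Ctrl to -0.838, -0.806 and -0.766 in OGT_SCKO. That is a 1.62-fold fall (log2 -0.70, SE 0.10, limma adjusted p 0.00438). With slide as a block Pbx4 and Meis2 kept the call, while Pbx3 and Pknox1 had limma adjusted p-values of 0.0713 and 0.0532.

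Of the other cofactors, Pbx2, Meis1, Meis3 and Pknox2 did not pass. Meis3, a hindbrain cofactor, differed by -0.70 (SE 0.31, limma adjusted p 0.146), with OGT_SCKO 2 at 0.091 and the other OGT_SCKO pools at 1.353 and 1.055. When all kept probes of a gene were averaged, Meis3 also passed as lower (-0.51, limma adjusted p 0.0412). The second kept probes of Pbx3 and Pknox1 moved the same way as the first.

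**Figure D4:**
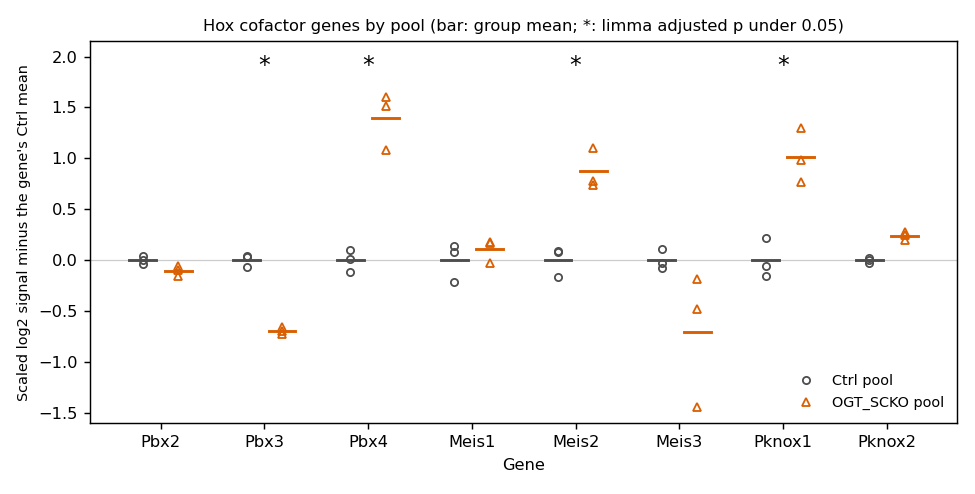
Each pool's scaled log2 signal minus the Ctrl mean of the gene, for 8 of the 9 TALE cofactor genes (circles Ctrl, triangles OGT_SCKO, 3 pools each, bars the group means, stars a limma adjusted p under 0.05). Pbx4, Meis2 and Pknox1 lie above the Ctrl pools and Pbx3 below them, while the triangles of Meis3 are spread widely.

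Hox clusters are switched on by Cdx factors, retinoic acid and Gdf11, held open by trithorax proteins and held silent by the Polycomb complexes. Of 33 such genes 28 were tested, 2 passed as higher and 4 as lower, with a median of -0.09. The 6 called genes are 21.4% of the list, near the 23.3% of all genes, so the count is no result about these regulators as a group. Cyp26b1, which breaks down retinoic acid, was at 0.08, 0.216 and -0.105 in Ctrl 1, 2 and 3, and at 0.823, 1.293 and 1.164 in OGT_SCKO 1, 2 and 3, a rise of 2.04-fold (log2 1.03, SE 0.16, limma adjusted p 0.00633). Gdf11, a signal that sets the trunk-to-tail boundary, rose 1.6-fold (log2 0.68, SE 0.12, limma adjusted p 0.00966). In both genes all OGT_SCKO pools lay above all Ctrl pools.

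The lower genes include Cbx2 and Phc2, which encode subunits of the Polycomb complex PRC1. Cbx2 was at -0.101, -0.174 and -0.006 in Ctrl 1, 2 and 3, and at -1.016, -0.749 and -0.847 in OGT_SCKO 1, 2 and 3, and fell 1.71-fold (log2 -0.78, SE 0.12, limma adjusted p 0.00559). Phc2 fell 1.39-fold (log2 -0.48, SE 0.10, limma adjusted p 0.0188). Rarg, a retinoic acid receptor, fell 1.34-fold (log2 -0.42, SE 0.11, limma adjusted p 0.0367). In these genes every OGT_SCKO pool lay below every Ctrl pool. The PRC1 genes Ring1, Rnf2, Bmi1, Pcgf2, Phc1 and Cbx7 did not pass, with differences from -0.49 to 0.35, and Cbx8 was on no array. The core genes of the second complex, Ezh1, Ezh2, Eed and Suz12, did not pass either (-0.48, -0.22, 0.19 and -0.05).

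With slide as a block no gene of this list passed after adjustment (limma adjusted p 0.0795 for Cbx2, 0.0838 for Cyp26b1, 0.107 for Gdf11, 0.138 for Phc2 and 0.104 for Rarg). At an unadjusted limma p under 0.05 that fit had 4 genes of the list higher and 5 lower. Under normexp Gdf11 and Phc2 did not pass (limma adjusted p 0.159 and 0.0578). Leaving out OGT_SCKO 3 ended the call of Gdf11 (limma adjusted p 0.0523). Phc2 lost it without any of 4 pools, Ctrl 1, 2 and 3 and OGT_SCKO 3 (limma adjusted p 0.0674, 0.0668, 0.0782 and 0.0648). Rarg lost it without any pool but OGT_SCKO 2, at limma adjusted p-values of 0.0732, 0.124 and 0.112 without Ctrl 1, 2 and 3, and 0.0603 and 0.128 without OGT_SCKO 1 and 3.

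The last list holds other patterning genes of limb and connective tissue. Of 16 genes 11 were tested, 2 were higher and none lower by limma after adjustment, with 3 higher and 0 lower at an unadjusted limma p under 0.05. The share called was 18.2%, beside 23.3% of all genes. Meox1, a somite homeobox gene, was at -0.238, -0.539 and -0.943 in Ctrl 1, 2 and 3, and at 0.853, 0.936 and 0.387 in OGT_SCKO 1, 2 and 3, a rise of 2.46-fold (log2 1.30, SE 0.23, limma adjusted p 0.0094). With slide as a block its limma adjusted p was 0.0912. Prrx2, a homeobox gene of limb and face mesenchyme, rose 2.06-fold (log2 1.04, SE 0.16, limma adjusted p 0.00677).

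The genes that set forelimb or hindlimb identity were dim. Tbx5, the forelimb gene, was on no array, Pitx1 and Tbx4, the hindlimb genes, on 3 and 2, and En1 and Evx1 on none. Evx2, the homeobox gene beyond Hoxd13 at the end of the Hoxd cluster, was on all 6 arrays, with a difference of -0.29 that did not pass (limma adjusted p 0.269). Prrx1, Twist1 and Twist2, which mark mesenchyme, were on all 6 and did not pass.

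Markers of the cells of a nerve and of the tissue around it were read from the same fit. As a sum of linear signal relative to each array's 75th percentile, the 10 fibroblast markers ran from 390 to 625 over the Ctrl pools and from 262 to 463 over the OGT_SCKO pools, with 2 lower. The 12 Schwann cell markers, all on every array, ran from 614 to 796 and from 397 to 628, with 2 lower. These sums depend on the scaling: under quantile scaling the median difference of the fibroblast list moved from -0.51 to -0.12 and that of the Schwann cell list from -0.37 to -0.05. The 7 perineurial markers ran from 48.4 to 65.5 and from 32.6 to 39.6, with 3 lower, the 8 endothelial markers from 26.9 to 30.3 and from 18.5 to 23.3, with 1 lower, and the 8 mural markers from 58.7 to 74.8 and from 37.1 to 62.9, with 1 higher and 1 lower. The differences were widest in tissue around the nerve. Of the 7 tested adipocyte markers 4 were lower, with sums of 2.63 to 14.8 in Ctrl and 0.251 to 1.92 in OGT_SCKO, and Lep was on no array. The filter also keeps a gene that only the Ctrl pools have well above background on every array, which favours a lower call. With all arrays required, 3 adipocyte markers were tested and 2 were lower. No adipocyte marker passed without Ctrl 2, without Ctrl 3, under normexp or with slide as a block, though 7, 6, 5 and 7 were lower at an unadjusted limma p under 0.05. Of the 8 tested skeletal muscle markers 7 were lower, with sums of 4.85 to 6.16 and 1.83 to 3.23, and Myh1 was on no array, with 3 lower without Ctrl 3 and 2 under normexp. The 9 macrophage markers ran from 40.6 to 47.3 and from 41.7 to 51.6, with 2 higher. The 8 neuronal markers ran from 10.3 to 14.3 and from 16.2 to 20.6, with 1 higher and 3 lower, but the rise of the sum is that of Uchl1 alone, from 2.54 to 3.3 in Ctrl and from 10.6 to 11.4 in OGT_SCKO. Without Uchl1, left out after its values were seen, the sum ran from 7.56 to 11.7 and from 4.91 to 9.23. The brightest of the markers left in it did not pass (limma adjusted p 0.73). All of these sums are weighted to their brightest markers, so a sum is no level of a cell type. Among all genes 12.1% were lower and 11.2% higher. The lower shares were 16.7% of Schwann cell, 20% of fibroblast, 12.5% of endothelial and 12.5% of mural markers. They were 42.9% of perineurial, 57.1% of adipocyte, 87.5% of skeletal muscle and 37.5% of neuronal markers. With well above background required on all arrays, 2 of 3 adipocyte, 7 of 7 skeletal muscle and 2 of 7 neuronal markers were lower. Under that filter 2203 of 17806 genes were lower. The higher shares were 22.2% of macrophage, 12.5% of mural and 12.5% of neuronal markers. With 7 to 12 genes tested in a list, counts near the background are no result about a cell type. The part of these cell types in the Hox differences was not tested.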

How the data were processed

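Per the file headers, spot intensity was read in 1 channel (red, Cy5) with Agilent Feature Extraction 11.5.1.1, which removed background and spatial trends and put a surrogate in place of very low values. Arrays are not scaled to each other in these deposited intensity columns. Other values used from the deposited files are the software's flags. The authors' deposited log2 values have the same distribution in each column and served as an alternative. The steps behind them are not given in the sources used here.

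The values used are log2 of the processed signal minus each array's 75th percentile. Control and outlier spots were left out and spots of a probe averaged. A probe was kept where 1 group or both had it well above background on every array. The kept probe with the highest mean stood for its gene, giving 19058 genes (4288 had several). Symbols were updated through a RefSeq table of GRCm38.p6, which matched 27655 of 39429 probes. The 3 OGT_SCKO pools were tested against the 3 Ctrl pools with limma 3.58.1 (lmFit, eBayes) under R 4.3.3, without covariates, and p-values were adjusted by Benjamini-Hochberg over all genes. The script was tested on simulated data. The number of arrays limits the precision. Replicate numbers were not taken as pairs.

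The members and lists were chosen with earlier results of these data known. Per-pool values are given for Hox genes past an adjusted p of 0.05, for Ogt and for genes of the cofactor, regulator and limb lists past it (at most 6 a list), in part as fold changes only. Those of Hoxd10, Hoxa5, Hoxc6 and Meis3 and the second Hoxa9 probe were added after their values were seen. Cell type marker lists are given as counts. Alternatives covered scaling, background correction, the filter, the probes of a gene, slide, the deposited values, replicate number, the variance model and each pool left out. Exon annotation of mm9 was not used here. Some genes and a probe sequence are not reported here and are left out of the plots, but they are in the counts and medians.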

Additional observations from a re-analysis of the deposited data

How the results depend on the processing

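All 6 called Hox genes kept their direction under the 18 alternatives, but the counts did not. Over all genes, 2126 were higher and 2312 lower. These became 1322 and 1307 with no filter on dim probes, 682 and 544 with slide as a fixed block, and 283 and 123 on slide 1 alone. Under normexp 1224 were lower, and leaving out a pool gave 1023 to 2248 higher and 951 to 3382 lower. Of Hox genes, 4 higher became 2 under normexp, 1 with the slide block, 0 on slide 1 alone (4 at an unadjusted limma p under 0.05) and 1 to 3 with a pool left out, with 2 without Ctrl 2 and 1 without OGT_SCKO 3. The 2 lower became 1 under quantile scaling, median scaling, the deposited values or a trended and robust variance, and 0 under normexp, with no filter, with the slide block or on slide 1 alone, and 0 to 2 with a pool left out. At an unadjusted limma p under 0.05, those 4 fits with 0 had 0, 3, 1 and 1 lower.

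Of the cofactors, 3 higher and 1 lower became 0 and 0 on slide 1 alone. The 1 lower became 0 with the slide block and 3 with the mean of a gene's probes. Of the regulators, 2 higher and 4 lower became 0 and 0 with the slide block or on slide 1 alone, 1 higher under normexp, and 1 to 2 higher and 1 to 4 lower with a pool left out. Of the limb list, 2 higher became 1 with the slide block and 0 on slide 1 alone. Counts of marker genes moved as well: over the 18 alternatives 0 to 2 Schwann cell, 0 to 3 fibroblast, 1 to 3 perineurial, 0 to 3 endothelial, 0 to 2 mural, 0 to 7 adipocyte, 1 to 7 skeletal muscle and 0 to 3 neuronal markers were lower, and 0 to 4 macrophage markers higher. On slide 1 alone Ogt was -1.32 at a limma adjusted p of 0.0537. Slide 1 alone sets 3 OGT_SCKO pools against 1 Ctrl pool, which is assumed to vary like the others.

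With the replicate number as a block 793 genes were higher and 682 lower, with 1 and 0 among Hox genes (4 and 2 at an unadjusted limma p under 0.05), 1 and 0 among cofactors and 1 and 0 among regulators. The main fit did not take the numbers as pairs. The same-number correlations of deviations were -0.27, -0.53 and 0.06, and those of unlike numbers ran from -0.41 to 0.46. So few pools cannot exclude a pairing.

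Among Hox genes and Ogt, signs turned only in genes that had not passed the test. In the called Hox genes most of the alternatives could not turn a sign. Hoxa5 was -0.081 with the slide block and on slide 1 alone, -0.05 without Ctrl 3 and -0.18 without OGT_SCKO 2, with 0.15 as its highest value over the pools left out. Hoxb3 was -0.06 without Ctrl 3 and -0.10 without OGT_SCKO 1, with 0.13 as its highest. Hoxb4 was 0.017 with the slide block and on slide 1 alone, and Hoxb6 ran from -0.23 to 0.093, the latter without OGT_SCKO 2. The cause was not tested. The lowest level that counted as well above background ran from -5.78 to -4.64 over the arrays, which sets what a dim Hox probe can show.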
